A study of Mus musculus with 14 samples.

Results

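The Hippo pathway was followed through 10 of its genes in mouse hepatic stellate cells (HSCs), the fat-storing cells of the liver sinusoid that turn into matrix-producing myofibroblasts in injured liver and in culture. The genes were the coactivators Yap1 and Wwtr1 (the gene of TAZ), their DNA-binding partners Tead1, Tead2, Tead3 and Tead4, the kinases Lats1 and Lats2, and the response genes Amotl2 and Ankrd1. They were picked by name as pathway components or YAP targets, and each was read from a probe set that carries this gene symbol alone. All 10 were on the array, which holds 35557 probe sets and 19938 genes with a probe set of their own. Only Tead1 had a second probe set, so the members have 11 probe sets in all, and the one with the highest mean was used.

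Primary HSCs were isolated from BalbC mice (Balb/cByJ in the study's methods, age not given in the sources used here) and grown in DMEM with fetal bovine serum. All 5 groups share this strain, medium and wash, and the clock starts when unattached cells were washed off. The control groups Ctrl4h and Ctrl64h have 3 samples each, taken 4 h and 64 h later, and Ctrl16h has 2 samples, taken at 16 h. Cells kept from the wash onward in 2.5 mM valproic acid (VPA), an inhibitor of histone deacetylases, make up VPA4h and VPA64h, with 3 samples each. Within each group the samples were independent biological replicates, each on 1 array. VPA and control samples of the same time and replicate number deviated together, and the main fit did not use this pairing.

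In the Hippo pathway the LATS kinases phosphorylate YAP and TAZ, which are then held in the cytoplasm or degraded. When the kinases are inactive, as in spread cells on a stiff surface, YAP and TAZ enter the nucleus and switch on genes through TEAD proteins. Amotl2, which binds YAP at junctions, Lats2 itself and Ankrd1, an ankyrin repeat protein first studied in heart muscle, are well-known targets, and Amotl2 and Lats2 also restrain YAP. In liver, YAP activity has been tied to the activation of HSCs. Arrays measure messenger RNA, so neither phosphorylation nor the place of YAP in the cell was seen here.

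The values are log2 expression levels made by RMA, which gives every array the same overall distribution. The words rose and fell are kept for changes of at least 2-fold, that is 1 on the log2 scale, with an adjusted p under 0.05 from limma. Smaller differences are given as values. Because RMA removes any change shared by most genes, each array was also re-centred on 10 housekeeping genes and, separately, on 1 probe set of Gapdh that is shared with other symbols. From Ctrl4h to Ctrl64h the median change of all 23410 tested probe sets was then -0.78 and -0.65, against -0.09 as deposited, and increases made up 6.16% and 11.8% of all calls, against 64.3%. These shifts exceed many of the members' differences, so it is stated below where a direction turns. For VPA64h against Ctrl64h the corresponding medians were -0.09, -0.12 and 0.00.

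The arrays of a group had a Pearson r of at least 0.993 across probe sets, and those of different groups at most 0.986. Of the HSC markers Reln ranged from 10.47 to 12.63 on the log2 scale and Pdgfrb from 10.59 to 11.42, while Gfap, also used as an HSC marker, stayed at 5.09 to 5.95. Of the 9 measured HSC markers 5 changed from Ctrl4h to Ctrl64h, Des and Hand2 upward and Reln, Ngfr and Colec11 downward (Colec11 fell by 2.71), and Lrat, Ngfr and Colec11 fell by 16 h. The mean of the 7 sinusoidal endothelial markers lay at 6.27 to 6.58 in Ctrl4h and 5.75 to 5.80 in VPA64h, and that of the 7 hepatocyte markers at 5.76 to 6.46 in Ctrl4h and 5.29 to 5.76 in Ctrl64h. Among all measured markers of other liver cells only Alb fell, from Ctrl4h to Ctrl64h and from VPA4h to VPA64h. Their part in the results below was not tested. In such bulk samples, fewer cells of a type and less RNA per cell cannot be told apart.

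TEAD proteins bind a DNA element with the core GGAATG, so the promoters of the members were searched for it on both strands, from 250 bases before the transcription start to 50 after it (RefSeq, GRCm38.p6). The table held 12 such windows for 8 members and none for Tead1 and Tead4. GGAATG was present in 8 of the 12 windows and in 6 of the 8 genes (Yap1, Wwtr1, Tead3, Lats2, Amotl2 and Ankrd1), compared with 14.7% of all 32851 promoters and 16.6% of all 27025 genes. Both Wwtr1 windows overlap and hold the same match, which is thus counted for each of them. Neither the AP-1 element TGANTCA nor the CArG box of serum response factor, which are in 7.81% and 1.63% of all promoters, was found in the 12 windows. A match describes the letters and shows no binding, and no match says nothing about a factor. The 250 bases upstream of Ankrd1 (chr19:36119845-36120094, minus strand) are shown because this gene had the widest range of levels, with both copies of GGAATG in capitals, at -210 to -205 and -123 to -118 from the start.
Ankrd1: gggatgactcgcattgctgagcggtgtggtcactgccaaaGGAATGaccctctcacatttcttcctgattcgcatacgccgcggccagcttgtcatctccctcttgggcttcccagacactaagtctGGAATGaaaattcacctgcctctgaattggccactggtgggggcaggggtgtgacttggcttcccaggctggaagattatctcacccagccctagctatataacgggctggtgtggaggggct

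For the other members with a match, 30 bases around it are shown to compare what flanks the core, again 5′ to 3′ on the strand of the gene, with GGAATG or its reverse complement CATTCC in capitals. The stretches are Yap1 chr9:8004720-8004749, Wwtr1 chr3:57576029-57576058, Tead3 chr17:28350706-28350735, Lats2 chr14:57746102-57746131 (all minus strand) and Amotl2 chr9:102717727-102717756 (plus strand). The Tead3 stretch holds a pair of copies, its window has 1 more just after the start, and 1 of its other windows holds 1 copy. The Amotl2 window lies inside the annotated gene (chr9:102717091-102733418), upstream of one of its start sites. The Tead3 and Lats2 stretches also lie inside their annotated genes (chr17:28331671-28350805 and chr14:57689662-57746212).
Yap1: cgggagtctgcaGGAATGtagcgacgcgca
Wwtr1: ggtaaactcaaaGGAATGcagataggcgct
Tead3: tccggccgggctCATTCCgtaCATTCCggc
Lats2: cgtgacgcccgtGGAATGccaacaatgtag
Amotl2: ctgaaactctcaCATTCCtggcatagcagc

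Ankrd1 showed the largest movement of the 10 genes, with group means spanning 3.09 on the log2 scale. Its log2 levels were 11.84, 11.30 and 11.19 in Ctrl4h, 12.44 and 12.58 in Ctrl16h, and 12.02, 11.52 and 11.98 in Ctrl64h. With VPA they were 9.81, 9.25 and 9.20 after 4 h and 12.46, 12.23 and 12.42 after 64 h. All VPA4h arrays lay below every other array, whereas Ctrl4h and Ctrl64h overlapped. After 4 h of VPA Ankrd1 had fallen by 2.02 (SE 0.18, adjusted p = 9.8e-07), a 4.06-fold lower level than in Ctrl4h. In control culture it rose by 1.07 (SE 0.20, adjusted p = 0.00117) from 4 h to 16 h. The change from Ctrl4h to Ctrl64h was 0.40 (SE 0.18, adjusted p = 0.0722), and turned to -0.29 and -0.16 with the housekeeping and Gapdh centring. Within the VPA cultures Ankrd1 rose by 2.95 (SE 0.18, adjusted p = 3.05e-09) from 4 h to 64 h, where it was 0.53 (SE 0.18, adjusted p = 0.0444) above Ctrl64h. From the lowest, the order of the means was VPA4h, Ctrl4h, Ctrl64h, VPA64h and Ctrl16h, and the neighbours Ctrl4h and Ctrl64h did not differ beyond their spread. VPA64h and Ctrl16h overlapped and were not compared by a test. The rise by 16 h missed 2-fold without Ctrl4h replicate 3 (0.94) or Ctrl16h replicate 2 (1.00 after rounding), and under the housekeeping (0.69) and Gapdh (0.65) centring.

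Amotl2, whose product keeps YAP at cell junctions, was the other member that rose in control culture. Its log2 levels were 9.52, 9.09 and 9.09 in Ctrl4h, 10.27 and 10.23 in Ctrl16h, and 10.66, 10.66 and 10.54 in Ctrl64h. In VPA4h they were 9.19, 9.03 and 8.90, and in VPA64h 10.01, 10.13 and 9.88. The 3 control time points did not overlap and followed each other upward, and VPA64h lay between VPA4h and Ctrl64h without overlap. Amotl2 rose by 1.02 (SE 0.13, adjusted p = 3.65e-05) from 4 h to 16 h and by 1.39 (SE 0.11, adjusted p = 5.17e-08) from 4 h to 64 h. With VPA the level at 64 h was lower by less than 2-fold, at -0.62 (SE 0.11, adjusted p = 0.000963). At 4 h the VPA and control arrays overlapped, with a difference of -0.20 (SE 0.11, adjusted p = 0.296). Between VPA4h and VPA64h the difference was 0.97 (SE 0.11, adjusted p = 3.88e-06), just under 2-fold. Without Ctrl4h replicate 2, Ctrl4h replicate 3 or Ctrl16h replicate 1 the change by 16 h was 0.95, 0.95 and 1.00 after rounding and missed 2-fold. Under the housekeeping and Gapdh centring the change was under 2-fold at 16 h (0.64 and 0.60) and at 64 h (0.70 and 0.83). Leaving out VPA4h replicate 1 or VPA64h replicate 3 put the change within the VPA cultures at 1.04 and 1.03, over 2-fold, and the housekeeping and Gapdh centring put it at 0.26 and 0.62.

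**Figure D1:**
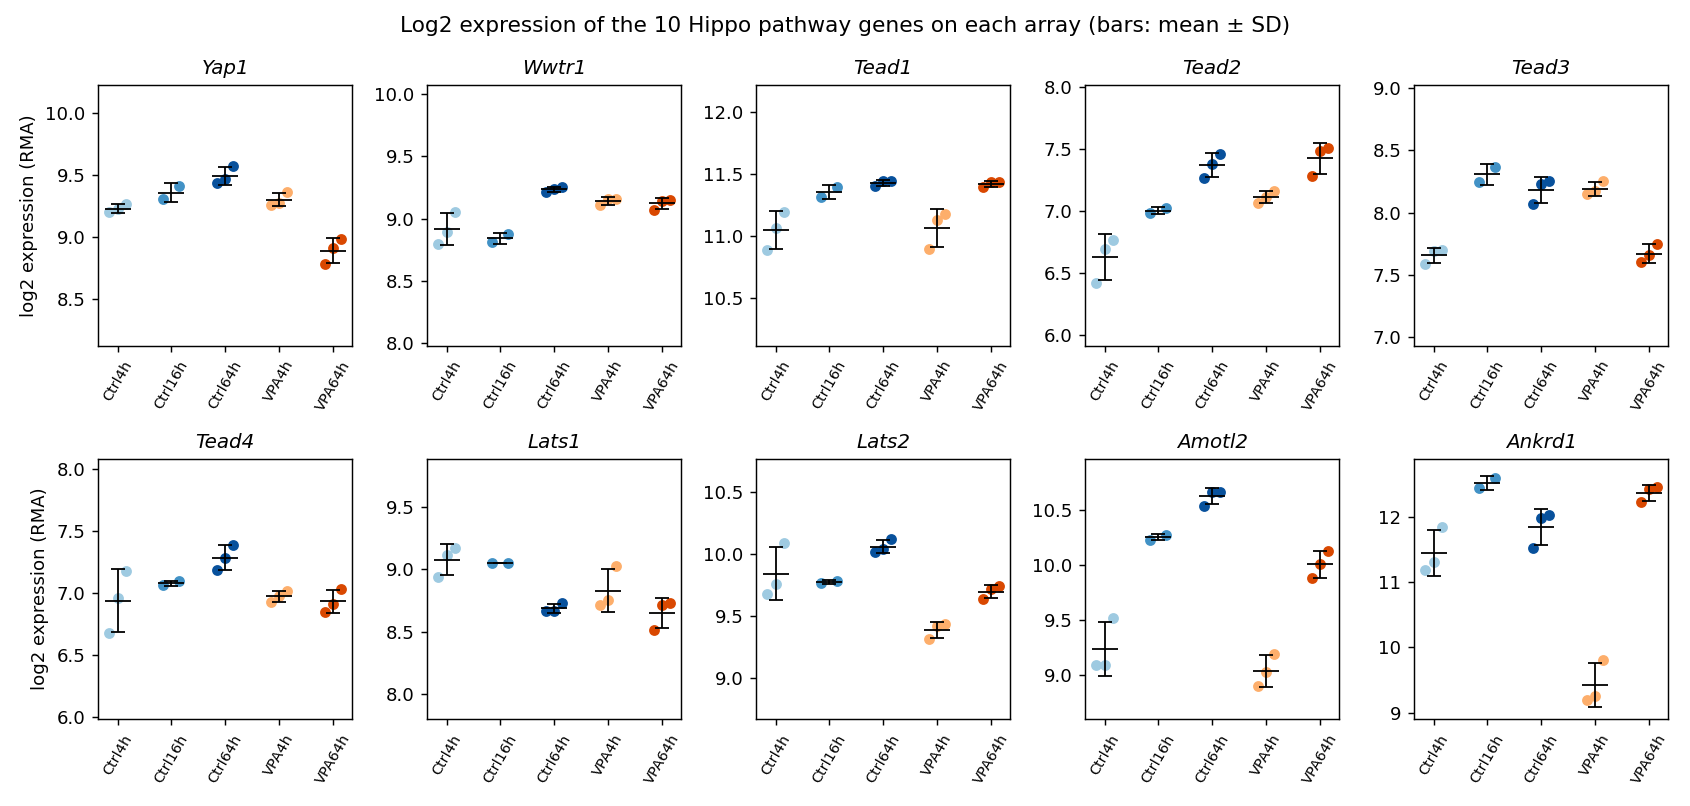
Log2 expression (RMA) of the 10 genes on each of the 14 arrays, with the group mean ± SD as bars and groups along the horizontal axis; the vertical axes of the panels differ and levels are not comparable between genes. The 3 VPA4h arrays of Ankrd1 sit between 9.20 and 9.81, below all others, and the 3 VPA64h arrays of Yap1 between 8.78 and 8.98, also below all others.

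The coactivator genes Yap1 and Wwtr1 stayed within 2-fold throughout, and Yap1 was lower in the 64 h VPA cultures than anywhere else. The log2 levels of Yap1 were 9.27, 9.22 and 9.20 in Ctrl4h, 9.41 and 9.30 in Ctrl16h, 9.57, 9.43 and 9.47 in Ctrl64h, 9.26, 9.28 and 9.36 in VPA4h, and 8.91, 8.98 and 8.78 in VPA64h. No VPA64h array overlapped an array of another group. The difference from Ctrl64h was -0.60 (SE 0.08, adjusted p = 5.02e-05), a 1.52-fold lower level, whereas that of VPA4h from Ctrl4h was 0.07 (SE 0.08, adjusted p = 0.65). The difference of -0.60 ranged from -0.72 to -0.55 over 23 alternatives, with an adjusted p of at most 0.00207. From Ctrl4h to Ctrl64h Yap1 differed by 0.26 (SE 0.08, adjusted p = 0.0114), which turned to -0.43 and -0.30 under the housekeeping and Gapdh centring.

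Wwtr1 had log2 levels of 9.05, 8.80 and 8.89 in Ctrl4h, 8.87 and 8.81 in Ctrl16h, 9.21, 9.25 and 9.24 in Ctrl64h, 9.16, 9.11 and 9.16 in VPA4h, and 9.07, 9.14 and 9.15 in VPA64h. Ctrl64h stood above all other groups without overlap, though by little. It was 0.40 (SE 0.09, adjusted p = 0.00191) above Ctrl16h and 0.32 (SE 0.08, adjusted p = 0.00273) above Ctrl4h, the latter turning to -0.37 and -0.24 under the housekeeping and Gapdh centring. For VPA the 95% interval of the difference was 0.06 to 0.39 at 4 h (adjusted p = 0.0542) and -0.28 to 0.05 at 64 h (adjusted p = 0.343). The 4 h difference of 0.23 turned to -0.11 with the Gapdh centring.

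Of the 4 TEAD genes, Tead3 was higher with VPA at 4 h and lower with VPA at 64 h, in both cases at an adjusted p under 0.05 and by less than 2-fold. Its log2 levels were 7.69, 7.59 and 7.70 in Ctrl4h, 8.37 and 8.25 in Ctrl16h, and 8.23, 8.26 and 8.07 in Ctrl64h. In VPA4h they were 8.25, 8.15 and 8.18 and in VPA64h 7.65, 7.75 and 7.60. VPA4h was thus at the level of the late controls and VPA64h at that of the early ones, each without overlap with the control of its own time. Tead3 was 0.53 (SE 0.08, adjusted p = 0.000149) higher in VPA4h than in Ctrl4h and -0.52 (SE 0.08, adjusted p = 0.00025) from Ctrl64h in VPA64h. With the Gapdh centring the 4 h difference was 0.20 (adjusted p = 0.119). From Ctrl4h the control cultures differed by 0.65 (SE 0.09, adjusted p = 9.66e-05) at 16 h and 0.53 (SE 0.08, adjusted p = 4.99e-05) at 64 h, and under the housekeeping and Gapdh centring these were 0.27 and 0.23 (adjusted p = 0.112 with Gapdh) at 16 h and turned to -0.16 and -0.03 at 64 h. From the lowest, the order of the means was Ctrl4h, VPA64h, Ctrl64h, VPA4h and Ctrl16h, with the first pair overlapping and the last 3 overlapping.

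Tead2 had log2 levels of 6.70, 6.43 and 6.77 in Ctrl4h, 7.03 and 6.98 in Ctrl16h, 7.38, 7.27 and 7.46 in Ctrl64h, 7.17, 7.12 and 7.07 in VPA4h, and 7.51, 7.49 and 7.28 in VPA64h. The control groups followed each other upward without overlap, and VPA64h overlapped Ctrl64h. From 4 h to 64 h the control difference was 0.74 (SE 0.10, adjusted p = 9.92e-06), or 1.67-fold, which shrank to 0.05 and 0.18 under the housekeeping and Gapdh centring. VPA4h was 0.49 (SE 0.10, adjusted p = 0.00159) above Ctrl4h, with 0.15 (adjusted p = 0.253) under the Gapdh centring. The 95% interval of the 64 h VPA difference ran from -0.16 to 0.26.

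Tead1 ranged from 10.89 to 11.20 in Ctrl4h, 11.31 to 11.39 in Ctrl16h, 11.40 to 11.45 in Ctrl64h, 10.89 to 11.17 in VPA4h and 11.39 to 11.44 in VPA64h. At neither time did VPA separate it from the control arrays, with differences of 0.02 (SE 0.09, adjusted p = 0.949) at 4 h and -0.01 (SE 0.09, adjusted p = 0.968) at 64 h, the first of which turned to -0.06 and -0.32 under the housekeeping and Gapdh centring. Its direction over time depended on the probe set. The one used differed by 0.38 (SE 0.09, adjusted p = 0.0026) from Ctrl4h to Ctrl64h, and the other by -0.48 (SE 0.12, adjusted p = 0.00269). No direction is given for Tead1.

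Tead4 ranged from 6.68 to 7.18 in Ctrl4h, 7.06 to 7.10 in Ctrl16h, 7.19 to 7.39 in Ctrl64h, 6.93 to 7.02 in VPA4h and 6.85 to 7.04 in VPA64h. Ctrl64h lay above all other groups. VPA64h differed from it by -0.35 (SE 0.11, adjusted p = 0.0253), and it differed from Ctrl4h by 0.35 (SE 0.11, adjusted p = 0.0123), turning to -0.34 and -0.21 under the housekeeping and Gapdh centring. Over 23 alternatives the 64 h VPA difference ranged from -0.48 to -0.30, with an adjusted p of up to 0.0965.

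Lats2, a kinase that inhibits YAP and is itself induced by it, was lower with VPA at both times at an adjusted p under 0.05. Its log2 levels were 10.09, 9.68 and 9.76 in Ctrl4h, 9.77 and 9.79 in Ctrl16h, 10.12, 10.02 and 10.04 in Ctrl64h, 9.44, 9.32 and 9.42 in VPA4h, and 9.74, 9.64 and 9.72 in VPA64h. Neither VPA group overlapped the control of its time. The VPA difference was -0.45 (SE 0.10, adjusted p = 0.00234) at 4 h and -0.36 (SE 0.10, adjusted p = 0.0118) at 64 h, both under 2-fold. Their difference was 0.09 (SE 0.14, adjusted p = 0.745), with a 95% interval of -0.20 to 0.38.

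Lats1, the second kinase of the pair, ranged from 8.94 to 9.18 in Ctrl4h, 9.05 to 9.05 in Ctrl16h, 8.66 to 8.73 in Ctrl64h, 8.71 to 9.03 in VPA4h and 8.51 to 8.73 in VPA64h. Ctrl64h lay below both earlier controls, by -0.39 (SE 0.10, adjusted p = 0.00328) from Ctrl4h and by -0.36 (SE 0.11, adjusted p = 0.0143) from Ctrl16h. Under the housekeeping centring the former became -1.08, over 2-fold. VPA and control arrays overlapped at 4 h and at 64 h, where the differences were -0.25 (SE 0.10, adjusted p = 0.0953) and -0.04 (SE 0.10, adjusted p = 0.844).

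Counted over the 10 genes, few passed the 2-fold limit in any comparison. From Ctrl4h to Ctrl16h 2 rose (Amotl2 and Ankrd1), beside 0.705% of all tested probe sets, and none fell, beside 1.21%. From Ctrl4h to Ctrl64h only Amotl2 rose, beside 6.68%, and none fell, beside 3.71%. Between 16 h and 64 h none of the 10 rose, beside 4.52%, and none fell, beside 2.08%. At an adjusted p under 0.05 alone 7 were higher and 1 (Lats1) lower in Ctrl64h than in Ctrl4h, beside 25% and 31.6% of all tested probe sets. Of these 7, Yap1, Wwtr1, Tead1 (whose other probe set was lower), Tead3 and Tead4 turned lower under both re-centrings, whereas Amotl2 and Tead2 did not. The median change of the 10 was 0.36, with -0.09 over all tested probe sets.

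VPA lowered Ankrd1 alone past 2-fold at 4 h, beside 0.555% of all tested probe sets, and raised none of the 10, beside 0.867%. At 64 h none of the 10 rose with VPA, beside 1%, and none fell, beside 1.14%. At an adjusted p under 0.05 alone 5 of the 10 (Yap1, Tead3, Tead4, Lats2 and Amotl2) were lower in VPA64h than in Ctrl64h, beside 11.2%, and 1 (Ankrd1) was higher, beside 12.8%. All 6 kept their direction under both re-centrings, though the adjusted p of Ankrd1 was then 0.0762 and 0.138. Over 23 alternatives the adjusted p of Tead4 reached 0.0965, and those of Yap1, Tead3, Lats2 and Amotl2 stayed under 0.05. The median was -0.23 at 64 h and 0.03 at 4 h, compared with 0.00 and -0.03 over all tested probe sets. Between VPA4h and VPA64h only Ankrd1 rose, beside 5.26%, and none fell, beside 2.29%. The Ctrl64h arrays enter both the culture and the 64 h VPA comparison, and the Ctrl4h arrays both the culture and the 4 h one, so these values stand side by side and are not independent.

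**Figure D2:**
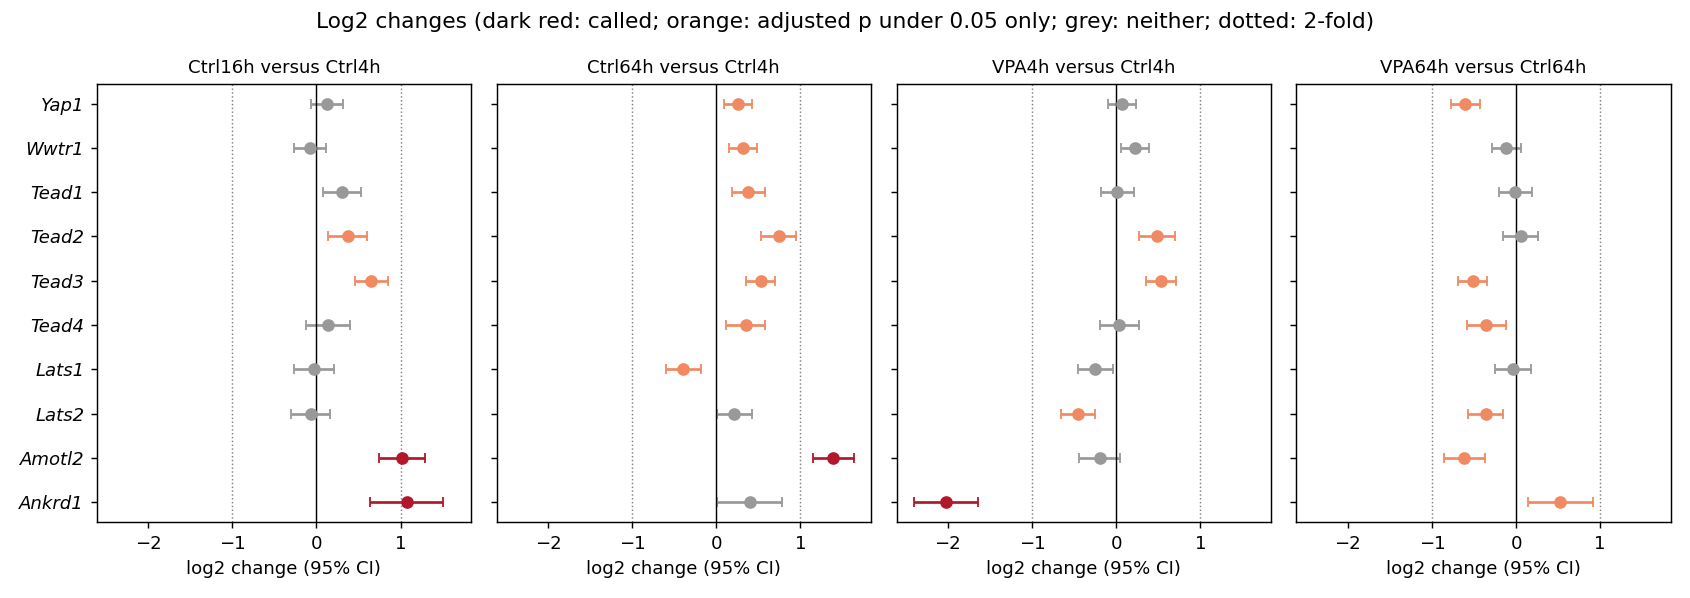
Log2 change with its 95% interval for the 10 genes in 4 comparisons; dark red marks an adjusted p under 0.05 with at least 2-fold (dotted lines), orange an adjusted p under 0.05 only, and grey neither. Amotl2 and Ankrd1 at 16 h, Amotl2 at 64 h and Ankrd1 with VPA at 4 h are dark red. From Ctrl4h to Ctrl64h the positive values of Yap1, Wwtr1, Tead1, Tead3 and Tead4 turn negative under the housekeeping and Gapdh centring. No direction is given for Tead1, whose other probe set differed by -0.48 as deposited.

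Whether the VPA effect differed between the 2 times was tested as the effect at 64 h minus that at 4 h. For Ankrd1 this difference was 2.55 (SE 0.26, adjusted p = 8.56e-06), and it stayed between 2.35 and 2.76 in 22 alternatives. For Tead3 it was -1.05 (SE 0.12, adjusted p = 2.11e-05), and -0.84 with the Gapdh centring. Ankrd1 was the 1 member with a called positive difference, beside 0.893% of all tested probe sets, and Tead3 the 1 with a called negative one, beside 1.7%. The difference was under 2-fold for Yap1, at -0.67 (SE 0.11, adjusted p = 0.00067), and for Tead2, at -0.43 (SE 0.14, adjusted p = 0.0464). For the other members the adjusted p was 0.0509 or more, but with the replicate number as a block that of Amotl2 (-0.42) went from 0.0974 to 0.0487.

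**Figure D3:**
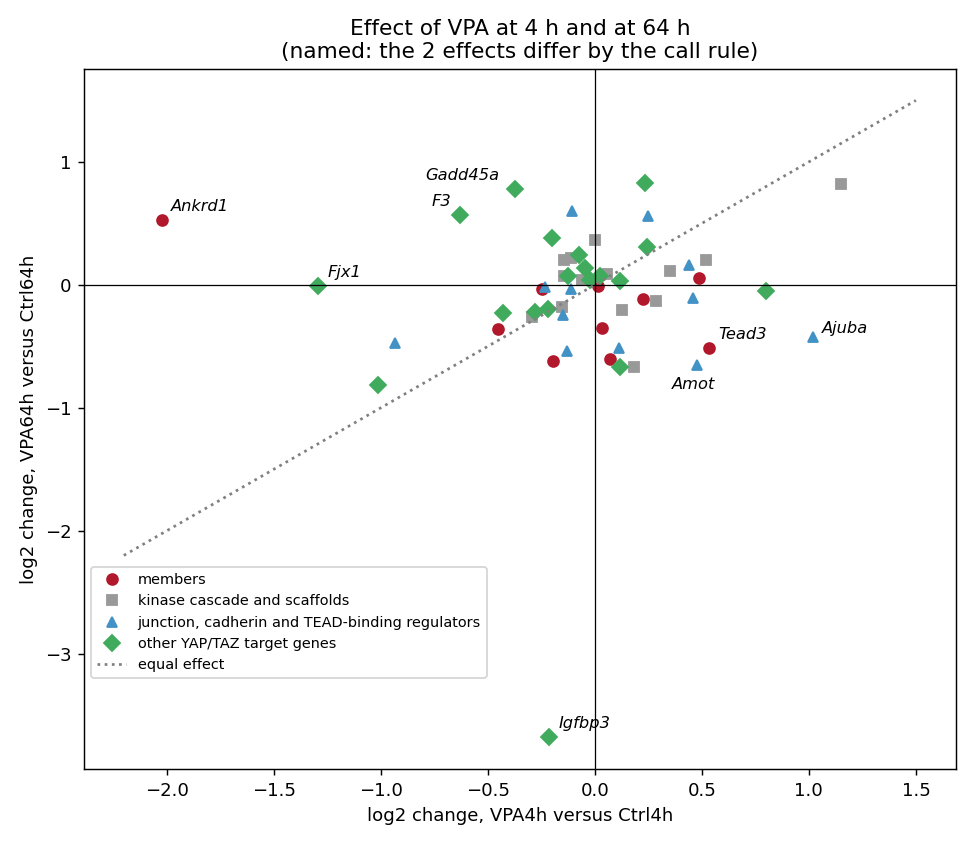
Log2 VPA effect at 64 h (vertical) against that at 4 h (horizontal) for the 10 genes and 3 further lists of the pathway, 1 point per gene, with a dotted line of equal effect. Named genes have effects that differ between the times at an adjusted p under 0.05 and at least 2-fold, and among the 10 genes Ankrd1 (-2.02 and 0.53) and Tead3 (0.53 and -0.52) are named.

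Upstream of LATS, no gene of the kinase cascade passed 2-fold in control culture as deposited, while from Ctrl4h to Ctrl64h 2 and 1 were called lower under the housekeeping and Gapdh centring. These centrings also called 6326 and 3927 of all 23410 tested probe sets lower. Of 16 listed genes of the cascade and its scaffolds 14 were analysed here, and none rose or fell from Ctrl4h to Ctrl16h or Ctrl64h, or between Ctrl64h and VPA64h. Of all tested probe sets 0.705% rose and 1.21% fell from Ctrl4h to Ctrl16h, and 6.68% and 3.71% from Ctrl4h to Ctrl64h. With VPA at 64 h 1% rose and 1.14% fell. The median change of these 14 genes was -0.01 from Ctrl4h to Ctrl64h and 0.08 with VPA at 64 h, beside -0.09 and 0.00 over all tested probe sets. The 1 call was an increase of Taok3, a kinase that activates the cascade, by 1.15 (SE 0.12, adjusted p = 4.78e-06) in VPA4h against Ctrl4h. Taok3 is named after its values were seen, and its increase was 0.82 with the Gapdh centring. In VPA4h against Ctrl4h 0.867% of all tested probe sets rose.

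Among the genes that act on YAP from junctions, cadherins and TEAD itself, 4 rose and none fell from Ctrl4h to Ctrl64h, beside 6.68% and 3.71% of all tested probe sets. Of 13 listed 12 were analysed here, and under the housekeeping centring 8 of them were called (4 higher and 4 lower). That centring called 415 of all 23410 tested probe sets higher and 6326 lower. Ajuba, a LIM protein that holds LATS back, went from 6.59 ± 0.13 (SD, n = 3) over 8.12 ± 0.08 (SD, n = 2) to 8.87 ± 0.07 (SD, n = 3), a rise by 2.27 (SE 0.09, adjusted p = 2.84e-11). Fat1, a giant cadherin upstream of the pathway, rose by 2.27 (SE 0.19, adjusted p = 5.22e-08). Vgll3, a cofactor that binds TEADs in place of YAP, rose by 2.21 (SE 0.12, adjusted p = 3.68e-10), and Amot, the angiomotin paralogue of Amotl2, by 1.91 (SE 0.10, adjusted p = 4.25e-10). Ajuba, Fat1 and Vgll3 had risen by 16 h, by 1.53, 1.94 and 1.70, whereas Amot rose between 16 h and 64 h, by 1.48 (SE 0.11, adjusted p = 8.04e-08). At an adjusted p under 0.05 alone 4 of the 12 were higher and 4 lower, beside 25% and 31.6% of all tested probe sets. The median of the 12 was -0.15, beside -0.09 over all tested probe sets.

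VPA raised Ajuba at 4 h, by 1.02 (SE 0.09, adjusted p = 9.17e-07), and at 64 h none of these 12 genes was called. Of all tested probe sets 0.867% rose at 4 h, and 1% rose and 1.14% fell at 64 h. The increase of Ajuba missed 2-fold without Ctrl4h replicate 1, Ctrl4h replicate 3 or VPA4h replicate 3 (0.98 each) and under the housekeeping (0.94) and Gapdh (0.69) centring. The median of the 12 was -0.18 at 64 h. From VPA4h to VPA64h Vgll3 rose by 2.67 (SE 0.12, adjusted p = 1.14e-10) and Fat1 by 1.65 (SE 0.19, adjusted p = 2.69e-06), or 0.94 under the housekeeping centring, while Limd1, another LIM protein, fell by 1.19 (SE 0.10, adjusted p = 6.39e-08) and is named after its values were seen.

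The other YAP and TAZ target genes went both ways. All 19 listed were measured, and from Ctrl4h to Ctrl64h 2 rose and 3 fell, beside 6.68% and 3.71% of all tested probe sets, with a median of -0.11. Under the housekeeping and Gapdh centring 8 and 9 were called, of which 7 were lower each time. Those centrings called 6326 and 3927 of all 23410 tested probe sets lower, and 415 and 525 higher. Igfbp3, which binds insulin-like growth factors, rose by 1.95 (SE 0.21, adjusted p = 1.07e-06) and the matrix protein gene Ccdc80 by 1.57 (SE 0.11, adjusted p = 5.49e-09), or 0.88 under the housekeeping centring. Fjx1 fell by 2.27 (SE 0.13, adjusted p = 1.01e-09) and Gadd45a, a stress and DNA damage gene, fell by 1.65 (SE 0.12, adjusted p = 1.26e-08). F3, the gene of tissue factor, fell by 1.27 (SE 0.12, adjusted p = 2.09e-07) and is named after its values were seen. Fjx1 and Gadd45a had fallen by 16 h, by 1.18 and 1.39, and without Ctrl4h replicate 1 the 16 h change of Fjx1 was -0.99.

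With VPA the target gene that fell at 64 h was Igfbp3, from 10.97 ± 0.42 to 7.29 ± 0.43 (SD, n = 3 each), and so fell by 3.68 (SE 0.21, adjusted p = 1.36e-08). At 4 h Fjx1 fell by 1.29 (SE 0.13, adjusted p = 3.13e-06) and Tgfb2, a TGF-β ligand named after its values were seen, fell by 1.01 (SE 0.16, adjusted p = 0.000153). The Tgfb2 change was -0.87, -0.96 and -0.99 without Ctrl4h replicate 1, VPA4h replicate 2 and VPA4h replicate 3. The median of the 19 was -0.13 at 4 h and 0.04 at 64 h. None rose past 2-fold with VPA at either time, beside 0.867% of all tested probe sets at 4 h and 1% at 64 h. The 2 that fell at 4 h and the 1 at 64 h stand beside 0.555% and 1.14%.

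The targets most used to read YAP activity, Ccn1 and Ccn2 (Cyr61 and Ctgf), were also looked at after their values were seen. Ccn1 had log2 levels of 12.90 ± 0.14 in Ctrl4h, 11.99 ± 0.13 in Ctrl64h and 12.82 ± 0.02 in VPA64h (SD, n = 3 each), and Ccn2 13.49 ± 0.13, 12.93 ± 0.05 and 13.32 ± 0.03. Neither passed 2-fold in any of the comparisons as deposited. From Ctrl4h to Ctrl64h Ccn1 differed by -0.91 (SE 0.09, adjusted p = 5.18e-07) and Ccn2 by -0.55 (SE 0.09, adjusted p = 5.06e-05), while Amotl2 rose by 1.39. Under the housekeeping and Gapdh centring these differences passed 2-fold, at -1.60 and -1.46 for Ccn1 and -1.24 and -1.11 for Ccn2. In VPA64h against Ctrl64h the difference was 0.83 (SE 0.09, adjusted p = 8.64e-06) for Ccn1 and 0.38 (SE 0.09, adjusted p = 0.0039) for Ccn2, while Amotl2 differed by -0.62 and Ankrd1 by 0.53. Over 23 alternatives the difference of Ccn1 ranged from 0.71 to 0.87. That of Ccn2 ranged from 0.26 to 0.40, with an adjusted p of up to 0.136. Amotl2, Ankrd1, Ccn1 and Ccn2 thus had no common direction in either comparison, with the change of Ankrd1 from Ctrl4h to Ctrl64h turning under both re-centrings.

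**Figure D4:**
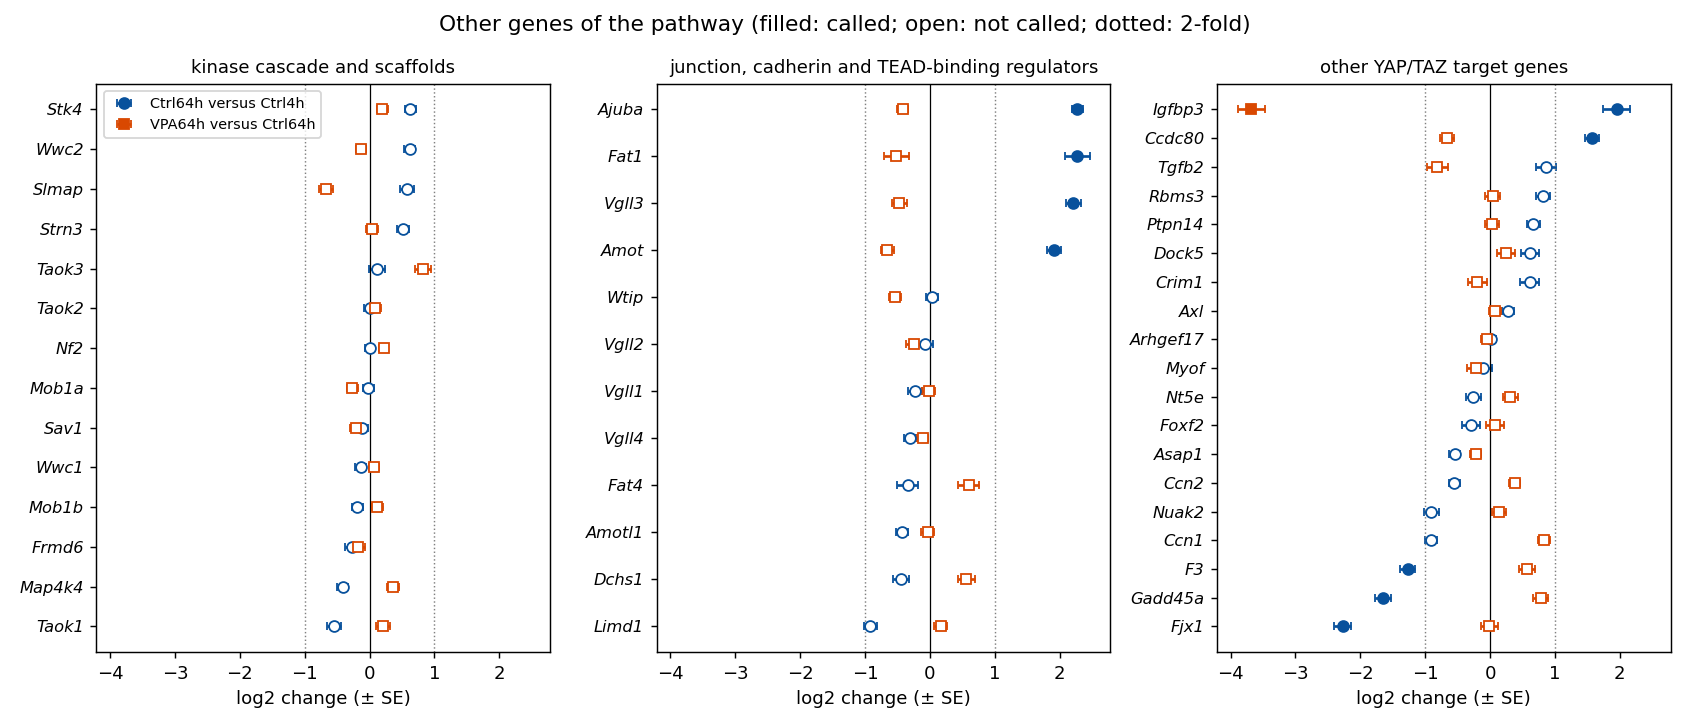
Log2 change ± SE of 45 further pathway genes in 3 panels (kinase cascade and scaffolds, regulators, and target genes), for Ctrl64h against Ctrl4h (blue circles) and VPA64h against Ctrl64h (orange squares), filled for changes past both limits (2-fold dotted). No kinase cascade gene is filled, 4 regulators and 5 target genes are filled in blue, and Igfbp3 is the only gene filled in orange, at -3.68.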

How the data were processed

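Messenger RNA of 14 HSC cultures was hybridised to Affymetrix Mouse Gene 1.0 ST arrays. The authors deposited log2 values made with RMA (background correction, quantile normalisation and probe summarisation). The methods name GeneSpring GX and the submitters' processing notes Affymetrix Expression Console. All columns were mapped to a sample by their labels and used as deposited, and array medians lay between 6.34 and 6.41. Arrays give no read depth, and precision is set by how many there are.

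The 23410 probe sets paired with at least 1 symbol were tested in R 4.3.3 with lmFit and eBayes of limma 3.58.1, fitting the 5 groups together and drawing 7 contrasts. There were 9 residual and 6.52 prior degrees of freedom, p-values are two-sided, and Benjamini-Hochberg adjustment ran over all tested probe sets of a contrast. Calls required an adjusted p under 0.05 and at least 2-fold, the limits of the study's methods, whose ANOVA was replaced by limma. Genes were named from the 21789 probe sets with exactly 1 symbol (12147 had none and 1621 several), and the probe set with the highest mean stood for a gene. The fit was tested on simulated data. Replicate numbers come from the sample titles. In VPA and control cultures of the same time all 3 same-numbered pairs deviated together (r = 0.14 to 0.28 at 4 h and 0.16 to 0.17 at 64 h, above the limit of 0.1), so these pair by number. Across times the controls did not, but all 3 same-numbered pairs of Ctrl4h and VPA64h did (r = 0.11 to 0.18).

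The 10 members and the 3 pathway lists were chosen with earlier results of these data known. Named are all members, up to 4 genes per list with the largest called changes in Ctrl64h versus Ctrl4h and as many in VPA64h versus Ctrl64h, and the 3 genes most like Ankrd1 and Amotl2. Others are marked as named after their values were seen. No test was run on a list. The alternatives were 10 settings and 14 fits that each left out 1 array. Promoters came from RefSeq (GRCm38.p6).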

Additional observations from a re-analysis of the deposited data

Results flagged for a closer look

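For 8 of the pathway genes the VPA effect at 64 h differed from that at 4 h, by the limma test of the difference itself with at least 2-fold. Of all tested probe sets 0.893% had a called positive difference and 1.7% a called negative one. Among the 10 members these were Ankrd1, with 2.55 (effects -2.02 at 4 h and 0.53 at 64 h, adjusted p = 8.56e-06), and Tead3, with -1.05 (0.53 and -0.52, adjusted p = 2.11e-05). Of the regulators Ajuba differed by -1.44 (1.02 and -0.42, adjusted p = 3.28e-06) and Amot by -1.13 (0.48 and -0.65, adjusted p = 6.78e-05). With the Gapdh centring Tead3 and Amot were at -0.84 and -0.93, under 2-fold.

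Of the target genes Igfbp3 differed by -3.47 (-0.21 and -3.68, adjusted p = 2.69e-06). Fjx1 differed by 1.28 (-1.29 and -0.01, adjusted p = 0.000213), F3 by 1.20 (-0.63 and 0.57, adjusted p = 0.000156) and Gadd45a by 1.15 (-0.37 and 0.78, adjusted p = 0.000243). No group has more than 3 arrays, so single arrays that stand apart were not tested for.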

How the results depend on the processing

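Ankrd1 kept its fall with VPA at 4 h (-2.35 to -1.83 in 23 alternatives) and its difference of VPA effects (2.35 to 2.76 in 22) past both limits. The rise of Amotl2 by 64 h was under 2-fold only under the housekeeping and Gapdh centring. The rises by 16 h were under 2-fold in 4 of 23 alternatives for Ankrd1 (0.65 to 1.27 over all) and in 6 of 23 for Amotl2 (0.60 to 1.16), always with an adjusted p under 0.05. The number of arrays limits all of this, Ctrl16h having 2.

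With the housekeeping centring the change from Ctrl4h to Ctrl16h turned for Yap1 (-0.25), Tead1 (-0.076), Tead2 (-0.0067) and Tead4 (-0.24). That from Ctrl16h to Ctrl64h turned for Yap1 (-0.18), Tead1 (-0.23), Tead4 (-0.10) and Lats2 (-0.027). From Ctrl4h to Ctrl64h it turned for Yap1 (-0.43), Wwtr1 (-0.37), Tead1 (-0.31), Tead3 (-0.16), Tead4 (-0.34), Lats2 (-0.47) and Ankrd1 (-0.29). The VPA difference turned for Yap1 (-0.0084), Tead1 (-0.064) and Tead4 (-0.044) at 4 h and for Tead2 (-0.040) at 64 h. That between VPA4h and VPA64h turned for Tead1 (-0.35), Tead2 (-0.40) and Lats2 (-0.40).

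With the Gapdh centring the corresponding values were -0.29 (Yap1), -0.12 (Tead1), -0.047 (Tead2) and -0.28 (Tead4) by 16 h, and -0.0042 (Yap1) and -0.060 (Tead1) from 16 h to 64 h. From 4 h to 64 h they were -0.30 (Yap1), -0.24 (Wwtr1), -0.18 (Tead1), -0.029 (Tead3), -0.21 (Tead4), -0.34 (Lats2) and -0.16 (Ankrd1). For VPA at 4 h they were -0.26 (Yap1), -0.11 (Wwtr1), -0.32 (Tead1) and -0.30 (Tead4), and at 64 h -0.069 (Tead2). They were -0.040 for Tead2 and -0.041 for Lats2 from VPA4h to VPA64h, and the difference of VPA effects turned to 0.18 for Tead1. With the mean of both Tead1 probe sets its changes turned to -0.38 from Ctrl16h to Ctrl64h, -0.049 from Ctrl4h to Ctrl64h, -0.026 for VPA at 4 h and -0.063 from VPA4h to VPA64h.

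Counts of called genes moved with the same centrings. With the housekeeping genes, 0 members, 4 targets and 797 probe sets were called by 16 h, 2 regulators from 16 h to 64 h, and 2 kinase cascade genes, 8 regulators, 8 targets and 6741 probe sets by 64 h. Between VPA4h and VPA64h there were 3 members, 3 kinase cascade genes, 5 regulators, 7 targets and 5951 probe sets. With Gapdh, 0 members, 4 targets and 881 probe sets were called by 16 h, and 0 members, 1 kinase cascade gene, 9 targets and 4452 probe sets by 64 h. For VPA at 4 h there were 0 kinase cascade genes and 564 probe sets, from VPA4h to VPA64h 4 targets, and for the difference of VPA effects 1 member and 1 regulator. As deposited 448, 2432, 333 and 1768 probe sets were called by 16 h, by 64 h, with VPA at 4 h and from VPA4h to VPA64h. The share of calls that were higher was 36.8% by 16 h (5.65% and 4.43% with the housekeeping and Gapdh centring), 68.5% from 16 h to 64 h (31.4% and 53.9%), 61% with VPA at 4 h (41% and 7.98%), 46.6% at 64 h (34.6% and 31.2%) and 69.6% from VPA4h to VPA64h (4.22% and 28.2%). For the difference of VPA effects it was 34.5% (32% and 69.7%).

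At an adjusted p under 0.05 without a fold limit, members, kinase cascade genes, regulators, targets and all probe sets numbered 4, 1, 5, 11 and 4708 by 16 h, and 6, 7, 7, 14 and 10082 from 16 h to 64 h. By 64 h they numbered 8, 7, 8, 15 and 13267. With VPA they were 4, 5, 5, 6 and 5020 at 4 h, and 6, 5, 6, 7 and 5621 at 64 h. Between VPA4h and VPA64h they were 7, 8, 8, 14 and 11790, and for the difference of VPA effects 4, 3, 5, 8 and 3713. With all 35557 probe sets tested, 2350 were called from 16 h to 64 h.

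When 1 array was left out, between 0 and 2 members and 1 and 2 targets were called by 16 h, and between 0 and 2 regulators and 1 and 2 targets with VPA at 4 h. Between VPA4h and VPA64h 1 to 2 members and 1 to 3 targets were called. Over all 23410 tested probe sets, 431 to 531 were called by 16 h and 333 to 376 with VPA at 4 h. It was 1701 to 1839 from VPA4h to VPA64h. Without Ctrl4h replicate 3 no member was called by 16 h, and without Ctrl4h replicate 1 no regulator with VPA at 4 h. Values near 0 crossed it, namely Lats1 (-0.10 to 0.023) and Lats2 (-0.15 to 0.055) by 16 h. With VPA at 4 h these were Tead1 (-0.065 to 0.10) and Tead4 (-0.10 to 0.16), and at 64 h Tead1 (-0.022 to 0.0065) and Lats1 (-0.074 to 0.035). Wwtr1 from VPA4h to VPA64h (-0.036 to 0.0070) and the difference of VPA effects of Tead1 (-0.11 to 0.057) and Lats2 (-0.031 to 0.17) crossed it as well.

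Over all groups that share replicate numbers, 13 of 26 same-numbered pairs had a correlation of their deviations above 0.1, among them all pairs of VPA and control at the same time. The 26 ranged from -0.24 to 0.28. Those of Ctrl16h with Ctrl4h, Ctrl64h and VPA64h were all negative (-0.24 to -0.040). The block values by 16 h thus rest on numbers by which Ctrl16h and Ctrl4h did not deviate together. With the replicate number as a block 1 member instead of 2 was called by 16 h, as Amotl2 was at 0.96, and Lats1 turned to 0.019 in that comparison. The adjusted p crossed 0.05 for Tead1 by 16 h (0.0261), Ankrd1 from Ctrl4h to Ctrl64h (0.0343) and the difference of VPA effects of Amotl2 (0.0487), and no other member's call changed with the block.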

Other observations

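The genes whose levels ran most like those of Ankrd1 over the 14 arrays, among 19937 other genes, were Elk3 (Pearson r = 0.974), Trappc12 (r = 0.974) and Dus2 (r = 0.971). Elk3, an ETS transcription factor, had mean log2 levels of 8.81 in Ctrl4h, 9.42 in Ctrl16h, 9.04 in Ctrl64h, 8.15 in VPA4h and 9.32 in VPA64h, the same order of groups as Ankrd1. For Amotl2 the 3 nearest genes were Tlcd3a (r = 0.982), Fads2, a fatty acid desaturase (r = 0.976), and Nagk (r = 0.974). Fads2 had mean log2 levels of 9.38 in Ctrl4h, 10.62 in Ctrl16h, 11.02 in Ctrl64h, 9.40 in VPA4h and 10.30 in VPA64h. The arrays share their 5 groups, so these values describe a likeness of pattern over few conditions. Among the members themselves r was highest for Tead1 with Amotl2 (0.859, with the probe set used for Tead1) and lowest for Tead2 with Lats1 (-0.771).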
